A study of Mus musculus with 11 samples.

Results

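The interferon response genes are 44 genes named by symbol, and all 44 were found among the 55401 rows of the count table. They are genes whose products sense viral nucleic acid, carry the interferon signal or act against intracellular microbes. All 44 were among the 20390 genes that passed the filter on low counts. They were measured in cells sorted as microglia, the resident macrophages of the brain. The sort took live CD11b+/CD45+ cells from brains of mice with amyloid deposition, and markers of other cell types were found too, as given below. Every mouse carried the NLGF allele, a knock-in of App that gives amyloid plaques without a transgene promoter, on a C57BL/6 background, and the labels give an age of 9 to 10 months. The 4 groups were NLGF controls with wild-type Tyrobp and Inpp5d (3 libraries), Inpp5d+/-;NLGF with 1 copy of Inpp5d (3 libraries), Tyrobp-/-;NLGF without Tyrobp (2 libraries), and Tyrobp-/-;Inpp5d+/-;NLGF (3 libraries). They are called NLGF, the Inpp5d+/- single mutant, the Tyrobp-/- single mutant and the compound mutant here. The series title places them in a study of how INPP5D bears on loss of TREM2 function. Tyrobp encodes DAP12, the adaptor that passes on signals from TREM2 and other receptors, and Inpp5d encodes the lipid phosphatase SHIP1.

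Type I interferons signal through the receptor pair IFNAR1 and IFNAR2 to a complex with STAT2 and IRF9 that binds the interferon-stimulated response element (ISRE). Interferon gamma signals through IFNGR1 and IFNGR2 to genes with a gamma-activated site (GAS). In brains with amyloid, a subset of microglia expresses interferon-induced genes, and neutrophils and monocytes can express such genes too. In bulk libraries such as these, a change in the number of cells of a type cannot be told apart from a change in RNA per cell.

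Library totals ran from 29490567 to 66637052 counts, so that 3 counts in a library equal 0.0477 to 0.1 CPM, the count scaled to a common library size. Tyrobp fell from 1952 to 2560 CPM in the 6 libraries with the gene to 3.22 to 8.94 CPM in the 5 Tyrobp-/- libraries. Inpp5d lay at 205 to 449 CPM in the 5 libraries with both copies and at 190 to 280 CPM in the 6 with 1 copy, so that these ranges overlapped. The 10 microglial markers were detected in every library, with sums of 43139 to 52369 CPM. The summed level of 12 neutrophil markers was 0.737 to 233.2 CPM in the 6 libraries with Tyrobp. It was 19197 and 4438 CPM in the Tyrobp-/- single mutant, and 256, 9904 and 2286 CPM in the compound mutant. The 12 monocyte markers summed to 18.3 to 87.3 CPM with Tyrobp and to 145 to 2572 CPM without it. Chil3 was the largest part of this sum in each Tyrobp-/- library, at 64 to 1421 CPM. In compound replicate 1, Ly6c2 (5.2 CPM) and Ccr2 (9.49 CPM) were below Inpp5d+/- replicate 3 (8.01 and 16.8 CPM). Whether this list tracks cells other than those of the neutrophil list was not tested. The 6 markers of border-associated macrophages, 1 of them shared with the monocyte list, summed to 0.734 to 25.3 CPM with Tyrobp and to 19.1 to 119.6 CPM without it. Most of the sum without Tyrobp was the shared gene F13a1, at 11.9 to 113.6 CPM, against 0 to 7.11 CPM with Tyrobp. Each of the others overlapped between the Tyrobp genotypes, such as Mrc1, at 0 to 16.4 CPM with Tyrobp and 0.388 to 17.2 CPM without. T and NK cell markers summed to at most 12.2 CPM, with 8 to 10 of 13 at 0 in each library and Cd3e at 0 in all. The numbers in the sample titles of Tyrobp-/- and other libraries fall in separate ranges, and the labels do not say what these numbers stand for. The Tyrobp genotype and whatever they track cannot be told apart.

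The promoters of several members are shown because the members are known for their response to interferon, which acts through these 2 elements. Promoters came from RefSeq on GRCm38.p6, which matched 35 of the 44 members. The 250 bases before the start were searched on both strands for the ISRE core (GAAA, any 2 bases, GAAA) and the GAS core (TTC, any 3 bases, GAA). The ISRE core was present in 18 of 35 members (51.4%), against 3.46% of all 27025 genes with a promoter in the table. The GAS core was present in 7 of 35 members (20%), against 8.13% of all genes. In 4 members both cores were found, and in 14 neither. A match describes letters and shows no binding. Igtp, Ifi47 and Xaf1, the 3 genes that passed the test for Tyrobp below, all lie on the plus strand of chromosome 11, with windows at chr11:58199306-58199555, chr11:49076337-49076586 and chr11:72301379-72301628. Capitals mark the GAS core and then the ISRE core.
Igtp: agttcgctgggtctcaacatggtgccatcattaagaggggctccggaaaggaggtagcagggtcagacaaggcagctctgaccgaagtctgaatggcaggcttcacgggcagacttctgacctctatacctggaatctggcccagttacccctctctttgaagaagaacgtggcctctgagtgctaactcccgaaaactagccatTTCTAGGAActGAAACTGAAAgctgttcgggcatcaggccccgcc
Ifi47: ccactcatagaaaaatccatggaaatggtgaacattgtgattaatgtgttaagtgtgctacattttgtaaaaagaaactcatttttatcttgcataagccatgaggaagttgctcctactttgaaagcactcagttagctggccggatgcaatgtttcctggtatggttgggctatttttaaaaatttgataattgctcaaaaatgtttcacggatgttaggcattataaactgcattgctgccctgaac
Xaf1: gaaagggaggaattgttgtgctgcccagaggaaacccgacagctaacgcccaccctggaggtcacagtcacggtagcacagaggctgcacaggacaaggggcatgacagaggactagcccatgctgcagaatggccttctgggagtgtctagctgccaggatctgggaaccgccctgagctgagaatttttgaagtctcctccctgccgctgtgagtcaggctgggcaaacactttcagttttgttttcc

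The Igtp window holds a GAS core, TTCTAGGAA, at bases 45 to 37 before the start and an ISRE core, GAAACTGAAA, at bases 34 to 25. Neither core was found in the windows of Ifi47 and Xaf1. The next windows, each of 80 bases, show how cores are arranged in members induced by type I interferon and in 2 transcription factors. They are chr19:34640759-34640838 and chr19:34583355-34583434 (plus strand), chr4:156200846-156200925 (minus strand, printed in the direction of transcription), chr10:128270248-128270327 and chr11:53769888-53769967 (plus strand). Capitals mark ISRE cores, in either orientation, except in Irf1, where they mark the GAS core TTCCCCGAA.
Ifit1: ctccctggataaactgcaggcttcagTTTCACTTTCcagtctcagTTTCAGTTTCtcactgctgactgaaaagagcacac
Ifit3: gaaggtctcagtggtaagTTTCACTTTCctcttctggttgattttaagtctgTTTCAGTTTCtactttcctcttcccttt
Isg15: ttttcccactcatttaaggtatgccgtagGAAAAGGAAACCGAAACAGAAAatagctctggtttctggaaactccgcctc
Stat2: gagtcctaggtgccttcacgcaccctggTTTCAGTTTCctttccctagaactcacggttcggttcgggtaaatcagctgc
Irf1: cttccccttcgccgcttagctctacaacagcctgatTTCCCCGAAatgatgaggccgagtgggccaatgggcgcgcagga

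Ifit1 and Ifit3 each hold 2 separate ISRE cores, and Isg15 holds 3 that overlap in 1 run. Stat2 holds 1 ISRE core, farther from the start than those of Ifit1 and Isg15. Irf1 holds no ISRE core in this window.

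Levels differed widely among the members. Per kilobase of gene model and averaged over all 11 libraries, Ifi27l2a was highest at 197 CPM per kb, followed by Bst2 at 110, Slfn2 at 106, Rtp4 at 49.8 and Igtp at 46.8 CPM per kb. Ifi27l2a encodes a small protein induced by interferon, and Bst2 encodes tetherin, which holds budding virus at the cell surface. The lowest were Mx1 at 0.527 and Ifi44 at 0.192 CPM per kb. Mx1 encodes an antiviral dynamin-like GTPase. All 4 groups thus held readable levels of most members, and 40 of 44 had a mean of at least 5 CPM.

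**Figure D1:**
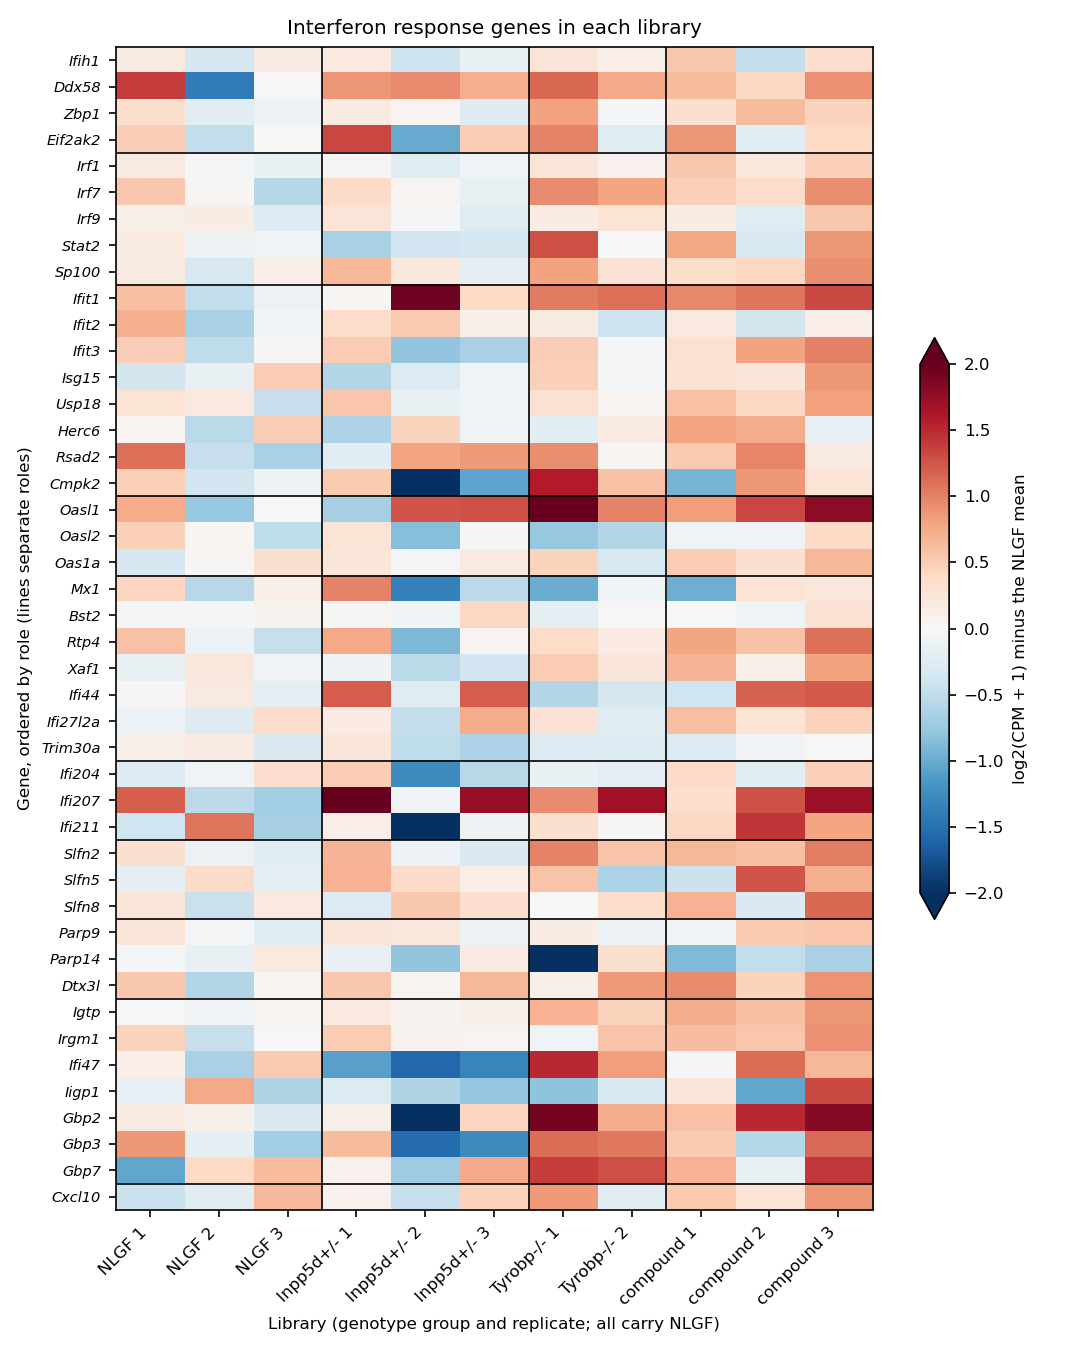
The 44 interferon response genes (rows, in order of role) in each of the 11 libraries (columns), as log2(CPM + 1) minus the NLGF mean, with red above and blue below it and the scale ending at 2 and -2. Compound replicate 3 is the highest library for 18 genes, and Inpp5d+/- replicate 2 is the lowest for 15. Igtp is above the NLGF range (70.1 to 75 CPM) in all 5 Tyrobp-/- libraries and in the Inpp5d+/- single mutant (75.9 to 83.2 CPM).

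The mean of log2(CPM + 1) over the 44 members was taken per library relative to the NLGF mean. It was 0.24, -0.17 and -0.06 in NLGF, 0.27, -0.32 and 0.04 in the Inpp5d+/- single mutant, 0.43 and 0.24 in the Tyrobp-/- single mutant, and 0.34, 0.37 and 0.75 in the compound mutant. The compound mutant lay above all 6 libraries with Tyrobp, while 1 Tyrobp-/- library lay within the range of the Inpp5d+/- single mutant. Group means were 0 ± 0.21 for NLGF (SD, n = 3), 0 ± 0.30 for the Inpp5d+/- single mutant (n = 3), 0.33 ± 0.14 for the Tyrobp-/- single mutant (n = 2) and 0.49 ± 0.23 for the compound mutant (n = 3). No test was made of this mean, since the members were chosen with results of these data known. The summed CPM of the neutrophil markers was above all libraries with Tyrobp in each of the 5 Tyrobp-/- libraries. It ran from 256 CPM in compound replicate 1 to 19197 CPM in Tyrobp-/- replicate 1. As a mean log2 difference from NLGF, these markers did not set compound replicate 1 apart. It was at 0.98, below NLGF replicate 2 at 1.01 and Inpp5d+/- replicate 3 at 1.21. The part of neutrophil markers in the mean over the 44 members was not tested.

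**Figure D2:**
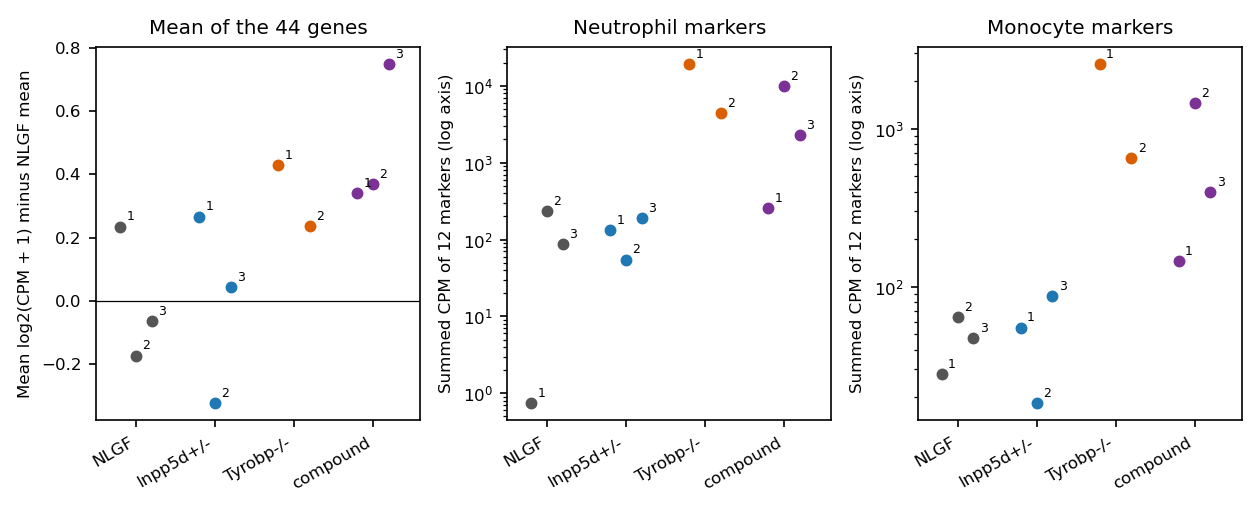
Left, the mean over the 44 genes of log2(CPM + 1) minus the NLGF mean; centre and right, the summed CPM of 12 neutrophil and 12 monocyte markers on log axes; each point is a library with its replicate number. The compound mutant lies at 0.34 to 0.75 in the left panel, and the neutrophil sum is at most 233.2 CPM in the 6 libraries with Tyrobp.

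Members also varied together among libraries of the same genotype. The correlation of a member's deviations from its group means with the mean deviation of the other members had a median of 0.475, and 39 of 44 were above 0. This describes 11 libraries, with 7 within-group degrees of freedom, that share their depth and scaling between genes. Over all tested genes, each correlated with the mean deviation of all 44 members, the median was 0.0216. A value above 0.5 was found for 20 members (45.5%) and for 12.1% of all genes. Rtp4, which encodes a chaperone of receptors, had the highest value at 0.88, followed by Ifit3 at 0.839 and Oasl2 at 0.809. Herc6, at -0.663, Ifit1, at -0.325, and Parp14, at -0.145, were the lowest.

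The effect of Tyrobp was taken as the mean of both Tyrobp contrasts, 5 libraries without the gene against 6 with it. Igtp, Ifi47 and Xaf1 rose, and no member fell. Igtp and Ifi47 encode GTPases of the immunity-related family, which interferon gamma induces and which act on vacuoles that hold microbes, and Xaf1 encodes a pro-apoptotic antagonist of XIAP. By edgeR's quasi-likelihood test with Benjamini-Hochberg adjustment, Igtp was 1.52-fold higher (log2 0.61, SE 0.08, adjusted p = 0.00347), Ifi47 3.55-fold (log2 1.83, SE 0.32, adjusted p = 0.0128) and Xaf1 1.58-fold (log2 0.66, SE 0.16, adjusted p = 0.0498). The 3 members called are to be read against 2.08% of all tested genes called higher in this comparison. In all, 37 of 44 members had a fold change above 0, with a median of 0.35 on the log2 scale, where all genes had a median of 0.02 and 51.5% were above 0. At an unadjusted p under 0.05 there were 11 members higher and 0 lower, beside 10.1% of all genes higher, and DESeq2 called 8 members, beside 6.27% of all genes higher.

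Igtp lies at chromosome 11, 58199556 to 58207591 (GRCm38), and was measured at 72.6, 70.1 and 75 CPM in NLGF, 83.2, 75.9 and 79 in the Inpp5d+/- single mutant, 118 and 99.9 in the Tyrobp-/- single mutant, and 122, 110 and 134 in the compound mutant. All 5 Tyrobp-/- libraries lay above all 6 others. The exons of Igtp overlap on the same strand with those of Irgm2, a related GTPase, so reads of the 2 genes may be shared between them. Irgm2 lay at 90 to 141 CPM in the libraries with Tyrobp and at 107 to 131 CPM in those without, so its ranges overlapped. Without the 2 libraries that held most of the neutrophil marker S100a8, Tyrobp-/- replicate 1 and compound replicate 2, the Igtp log2 value was 0.58. Tyrobp-/- replicate 2 was then the only library of the single mutant. Neutrophil transcripts remained, since S100a8 was at 1604 CPM in that library and at 783 CPM in compound replicate 3, against at most 80.9 CPM with Tyrobp. With the neutrophil marker mean as a covariate the Igtp estimate was 0.61, with a larger SE of 0.17, and did not pass (edgeR adjusted p = 0.283).

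Ifi47 lies at chromosome 11, 49076587 to 49096974. Its values were 7.21, 3.77 and 9.77 CPM in NLGF, 2.54, 1.53 and 2.02 in the Inpp5d+/- single mutant, 20.4 and 12.3 in the Tyrobp-/- single mutant, and 6.4, 15.2 and 10.9 in the compound mutant. The Inpp5d+/- single mutant was low, and compound replicate 1 was within the NLGF range. Its exons overlap with Olfr56 on the same strand, which had 629 counts in total against 4976 for Ifi47. The Ifi47 call was lost without the 2 libraries with most S100a8 (log2 1.46, edgeR adjusted p = 0.129), without Tyrobp-/- replicate 1 alone (log2 1.62, edgeR adjusted p = 0.0666) and with the neutrophil covariate (log2 0.90, SE 0.56, edgeR adjusted p = 0.691).

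Xaf1 lies at chromosome 11, 72301629 to 72313733. It was at 23.6, 31.2 and 25 CPM in NLGF, 24.5, 17.9 and 20 in the Inpp5d+/- single mutant, 38 and 31.4 in the Tyrobp-/- single mutant, and 43.1, 28.8 and 47 in the compound mutant. Compound replicate 2 was below NLGF replicate 2, and the other Tyrobp-/- libraries were above all libraries with Tyrobp. Xaf1 lay just inside the threshold, and its call was lost without any 1 of 10 libraries, remaining only when compound replicate 2 was left out (edgeR adjusted p = 0.0255). It was also lost with upper-quartile scaling (edgeR adjusted p = 0.059), with no filter (edgeR adjusted p = 0.0614) and with the covariate (edgeR adjusted p = 0.49). With the covariate the log2 value was 0.75 with an SE of 0.32, against 0.66 and 0.16 in the main fit. Without the 2 libraries with most S100a8 the log2 value was 0.68. The Xaf1 value was thus not lower in either of these 2 fits. Neutrophil and monocyte markers were higher in the Tyrobp-/- libraries, with 8 of 12 and 7 of 12 called higher in the same comparison, and their part in these results was not tested beyond these values.

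**Figure D3:**
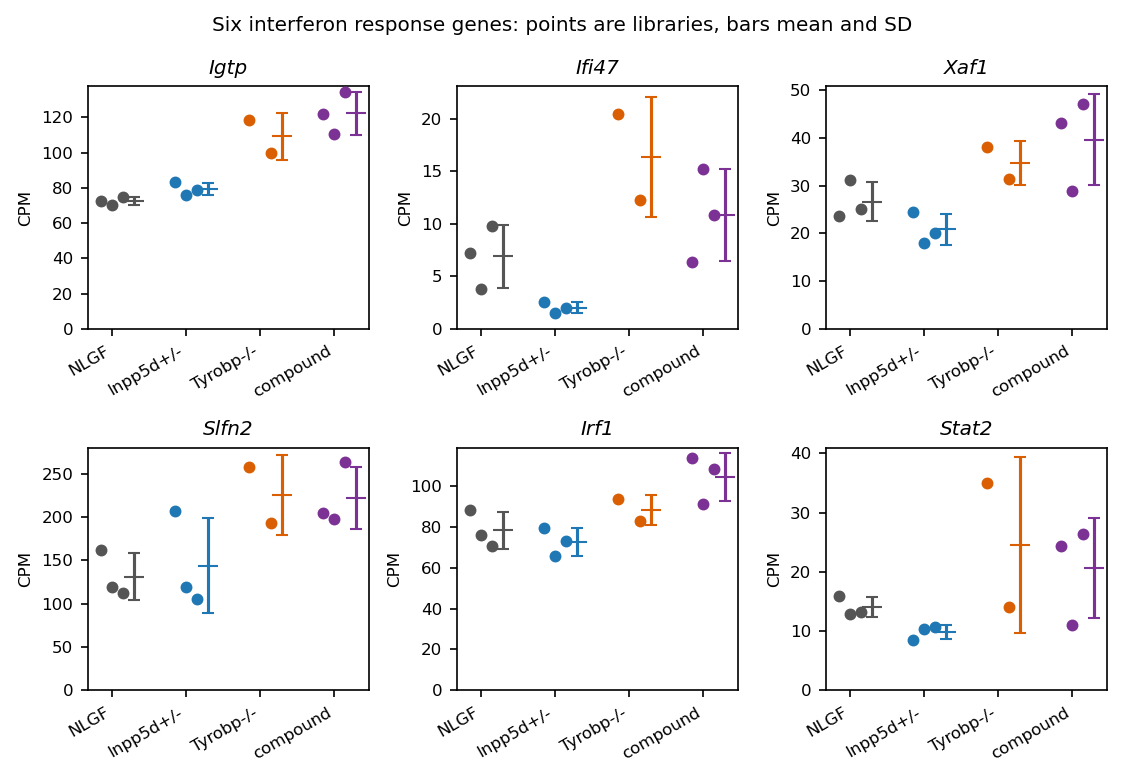
CPM of 6 interferon response genes in each library (points), with the mean and SD of each group (bars; n = 3, 3, 2 and 3). Igtp is at 99.9 to 134 CPM in the 5 Tyrobp-/- libraries and at 70.1 to 83.2 CPM in the others, while the remaining 5 genes overlap between the Tyrobp genotypes in at least 1 library.

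The 7 GTPase genes (Igtp, Ifi47, Irgm1, Iigp1, Gbp2, Gbp3 and Gbp7) all had fold changes above 0, with a median of 1.02 on the log2 scale. Of all genes, 51.5% were above 0 in this comparison, the share to set beside this count and those by role below. Irgm1, which encodes a regulatory GTPase of autophagy, was at 152, 80.7 and 112 CPM in NLGF, 158, 117 and 115 in the Inpp5d+/- single mutant, 106 and 166 in the Tyrobp-/- single mutant, and 172, 163 and 211 in the compound mutant. Gbp2, a guanylate-binding protein gene, was at 5.11, 4.77 and 3.39 CPM in NLGF, 4.85, 0.181 and 6.25 in the Inpp5d+/- single mutant, 19.3 and 7.95 in the Tyrobp-/- single mutant, and 7.03, 14.2 and 18.1 in the compound mutant. Gbp2 was above the other 6 libraries in all 5 libraries without Tyrobp, a pattern shown by 2 members (Igtp and Gbp2) and by 2.7% of all genes. It did not pass (log2 1.71, SE 0.65, edgeR adjusted p = 0.185). Iigp1, another interferon-gamma inducible GTPase, ranged from 1.5 to 11.8 CPM with both ends in the compound mutant.

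Among the transcription factors, all 5 had values above 0. At an unadjusted p under 0.05, 4 were higher, beside 10.1% of all genes higher, and none passed the adjusted threshold. Irf1, which drives many interferon-gamma targets, was at 88, 75.7 and 70.6 CPM in NLGF, 79.2, 65.5 and 73 in the Inpp5d+/- single mutant, 93.4 and 82.8 in the Tyrobp-/- single mutant, and 114, 91 and 108 in the compound mutant (log2 0.35, SE 0.10, edgeR adjusted p = 0.08). Stat2, which encodes a part of the type I complex, was at 16, 12.9 and 13.2 CPM in NLGF, 8.53, 10.4 and 10.7 in the Inpp5d+/- single mutant, 35.1 and 14 in the Tyrobp-/- single mutant, and 24.5, 11 and 26.5 in the compound mutant. Irf7, which amplifies type I interferon production, was at 26.1, 18.1 and 11.6 CPM in NLGF, 23.5, 18.4 and 15.9 in the Inpp5d+/- single mutant, 34.9 and 31.4 in the Tyrobp-/- single mutant, and 25.1, 23.2 and 34.7 in the compound mutant. Stat2 in particular was high in 3 Tyrobp-/- libraries and near the NLGF level in the other 2. Irf9, the DNA-binding part of the complex, had a log2 value of 0.19 (SE 0.15) and was at 103 to 148 CPM with Tyrobp and at 105 to 182 CPM without. Sp100, a nuclear body protein gene, was at 26.2 to 37.6 CPM in NLGF, 28.7 to 53.1 in the Inpp5d+/- single mutant, 40.6 and 58.5 in the Tyrobp-/- single mutant, and 42.8 to 63.5 in the compound mutant. It lies 1.91 Mb from Inpp5d, the locus at which the Inpp5d alleles differ. Exons of Irf1 overlap with Gm17334, which had 28817 counts in total against 48164 for Irf1. Those of Irf7 overlap with Phrf1 (7822 against 13481 counts). Both overlaps are on opposite strands, which the libraries do not mark. Exons of Irf9 overlap with Rnf31 on the same strand (11461 against 74054 counts), so reads of these genes may be shared.

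The 4 RNA sensors and their partners had a median of 0.22 on the log2 scale and no call. Ddx58, which encodes RIG-I, was at 35.2, 4.21 and 12.6 CPM in NLGF and at 17.3 to 29.4 CPM in the other 8 libraries, so the NLGF libraries held both extremes. Ifih1, which encodes MDA5, was at 12.3 to 26.1 CPM with both ends in the compound mutant. The genes for the IFIT proteins, ISG15, its protease and neighbours had 7 of 8 values above 0 and a median of 0.43. Ifit3 was at 61.3, 30.1 and 44.2 CPM in NLGF, 61.9, 24.7 and 27.4 in the Inpp5d+/- single mutant, 61.7 and 42.3 in the Tyrobp-/- single mutant, and 53.8, 76.4 and 88.2 in the compound mutant. Usp18, which encodes the protease that removes ISG15 and also restrains IFNAR2, was at 24.7 to 41.4 CPM in NLGF, 31.2 to 50.8 in the Inpp5d+/- single mutant, 35.7 and 42.5 in the Tyrobp-/- single mutant, and 46 to 61.1 in the compound mutant. For both genes the spread within a genotype was of the size of the difference between genotypes. Isg15 itself, the ubiquitin-like modifier, was at 5.9, 7.04 and 11.6 CPM in NLGF, 4.91, 6.37 and 7.43 in the Inpp5d+/- single mutant, 11.3 and 7.77 in the Tyrobp-/- single mutant, and 9.81, 9.46 and 15.2 in the compound mutant (log2 0.55, SE 0.25, edgeR adjusted p = 0.259).

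The OAS family, which makes or relates to the activator of RNase L, had no call. Oas1a was at 30.3 to 48.1 CPM in NLGF, 37.6 to 45.5 in the Inpp5d+/- single mutant, 30.5 and 52.7 in the Tyrobp-/- single mutant, and 48.4 to 61.7 in the compound mutant. Oasl2 was at 21.8 to 44.5, 17 to 38.4, 18.4 to 20.6 and 29.8 to 42 CPM in the same order of groups, and its log2 value for Tyrobp was -0.26 (SE 0.25). The Tyrobp-/- single mutant was thus among the lowest for Oasl2. The other antiviral effectors, apart from Xaf1, centred near 0 (median -0.07 over all 7). Rtp4 was at 124, 75.3 and 59.5 CPM in NLGF, 140, 43.5 and 84.9 in the Inpp5d+/- single mutant, 106 and 91.9 in the Tyrobp-/- single mutant, and 143, 124 and 177 in the compound mutant. Bst2 lay between 85.3 and 129 CPM in all 11 libraries (log2 -0.07, SE 0.11).

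The Ifi200 cluster, whose proteins bind DNA, had all 3 values above 0 and no call. Ifi204 was at 23.8 to 36.7 CPM in NLGF, 11.3 to 41.5 in the Inpp5d+/- single mutant, 25 to 26.2 in the Tyrobp-/- single mutant, and 24.7 to 40.6 in the compound mutant. Ifi211 ranged from 0.462 to 11.5 CPM with Tyrobp and from 5.09 to 15.1 CPM without, and Ifi207 from 0.732 to 10.8 and from 2.47 to 8.12 CPM. The ranges of the genotypes overlapped for each of these 3 genes. Slfn2, a Schlafen gene needed for quiescence of immune cells, was at 162, 119 and 112 CPM in NLGF, 207, 120 and 105 in the Inpp5d+/- single mutant, 258 and 193 in the Tyrobp-/- single mutant, and 205, 198 and 263 in the compound mutant (log2 0.70, SE 0.19, edgeR adjusted p = 0.0742). A single library with Tyrobp, Inpp5d+/- replicate 1, reached the Tyrobp-/- range. Slfn8 was at 17.7 to 35.9 CPM with Tyrobp and at 19.9 to 55.3 CPM without.

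Parp9 and Dtx3l, whose products form a complex that modifies histones and viral proteins, overlap each other on opposite strands, and the libraries do not mark strand. Parp9 was at 55.8 to 77.4 CPM with Tyrobp and 60.1 to 96.3 CPM without, and Dtx3l at 19.7 to 48.1 and 32.7 to 58.5 CPM. Neither passed. The chemokine gene Cxcl10, which attracts T cells, was at 7.92, 9.24 and 17.8 CPM in NLGF, 11.8, 7.74 and 15.2 in the Inpp5d+/- single mutant, 20.7 and 9.36 in the Tyrobp-/- single mutant, and 16.1, 13.3 and 21.1 in the compound mutant, and it did not pass either.

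**Figure D4:**
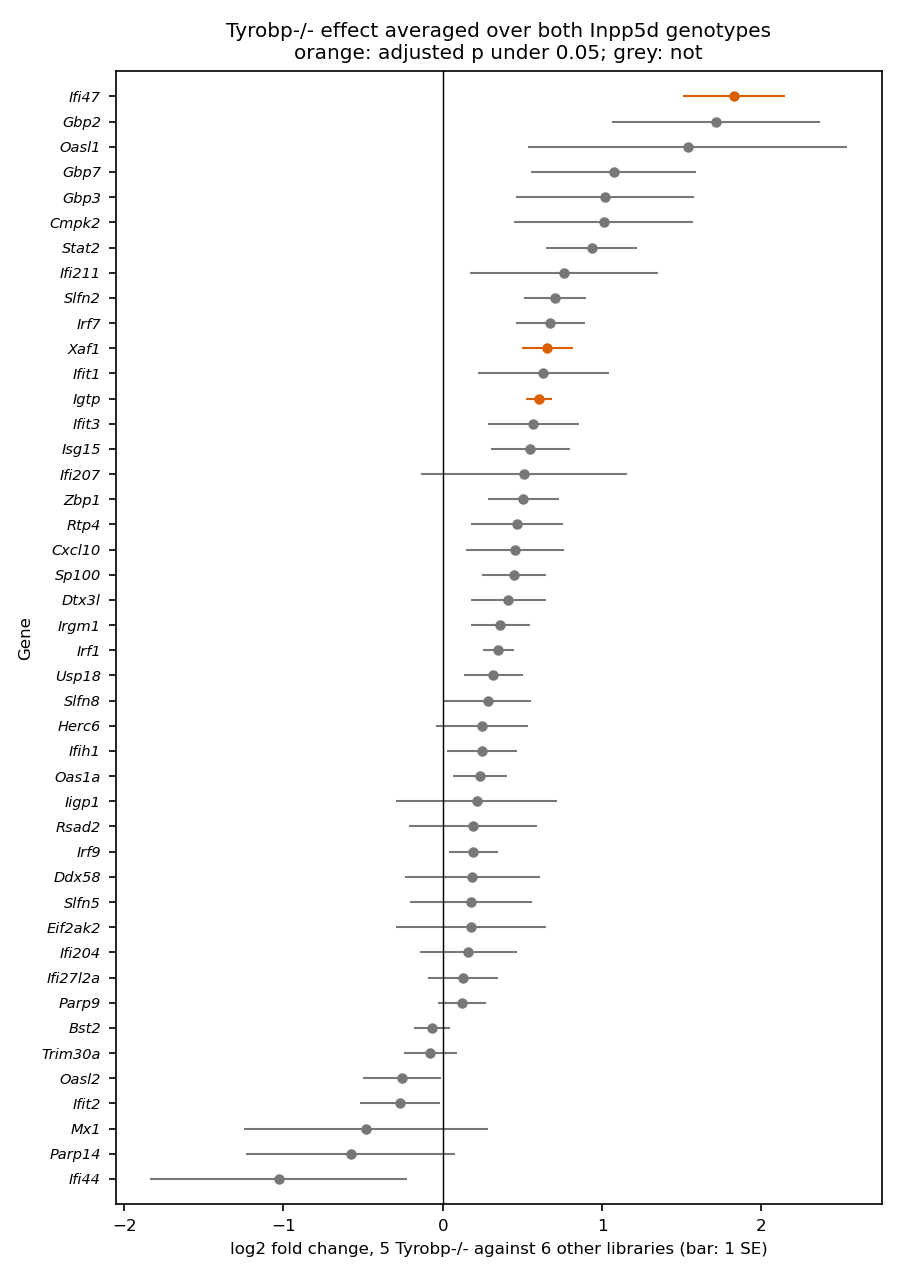
Log2 fold change of each of the 44 genes for Tyrobp-/- averaged over both Inpp5d genotypes (5 against 6 libraries), with bars of 1 SE; orange marks the 3 genes with an edgeR adjusted p under 0.05. Values are above 0 for 37 genes, and the largest is that of Ifi47 (log2 1.83, SE 0.32).

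The 2 comparisons that make up this average share no library. For the Tyrobp-/- single mutant against NLGF, no member passed, where 0.255% of all genes were called higher and 0.863% in either direction. Without adjustment 4 members were higher (Igtp, Slfn2, Ifi47 and Irf7) and 0 lower, beside 6.09% of all genes higher, and DESeq2 called 1 (Igtp; 2.9% of all genes higher) and limma-voom 0 (1.6% of all genes). Igtp had a log2 value of 0.59 (SE 0.12, edgeR adjusted p = 0.0599), Slfn2 of 0.78 (SE 0.29, edgeR adjusted p = 0.295) and Ifi47 of 1.24 (SE 0.47, edgeR adjusted p = 0.308). The median over members was 0.21, and 33 of 44 were above 0, where 50.1% of all genes were. Of the members, 13 (29.5%) were higher in both Tyrobp-/- libraries than in all 3 NLGF libraries, where 15.6% of all genes were, and 2 were lower in both, where 14% of all genes were.

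For the compound mutant against the Inpp5d+/- single mutant, Igtp and Ifi47 rose and no member fell, beside 0.265% of all genes called higher. Igtp had a log2 value of 0.62 (SE 0.11, edgeR adjusted p = 0.0322) and Ifi47 of 2.42 (SE 0.45, edgeR adjusted p = 0.042). Xaf1 did not pass (log2 0.93, SE 0.22, edgeR adjusted p = 0.0966). At an unadjusted p under 0.05, 8 members were higher and 0 lower, beside 7.15% of all genes higher. DESeq2 called 4 members (Irf1, Xaf1, Igtp and Ifi47), beside 3.14% of all genes higher, and limma-voom 1 (Igtp), beside 0.937% of all genes. The median was 0.48, with 36 of 44 above 0 against 51.8% of all genes, and 11 members (25%) did not overlap upwards against 9.36% of all genes. With the neutrophil covariate, or without the 2 libraries with most S100a8, 0 members passed. Igtp then had log2 values of 0.63 (edgeR adjusted p = 0.194) and 0.69 (edgeR adjusted p = 0.0942). With single libraries left out, Igtp kept values of 0.55 to 0.69 but passed only without NLGF replicate 1 or 3, and Ifi47 kept 2.09 to 2.69 and passed only without NLGF replicate 2 or 3.

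**Figure D5:**
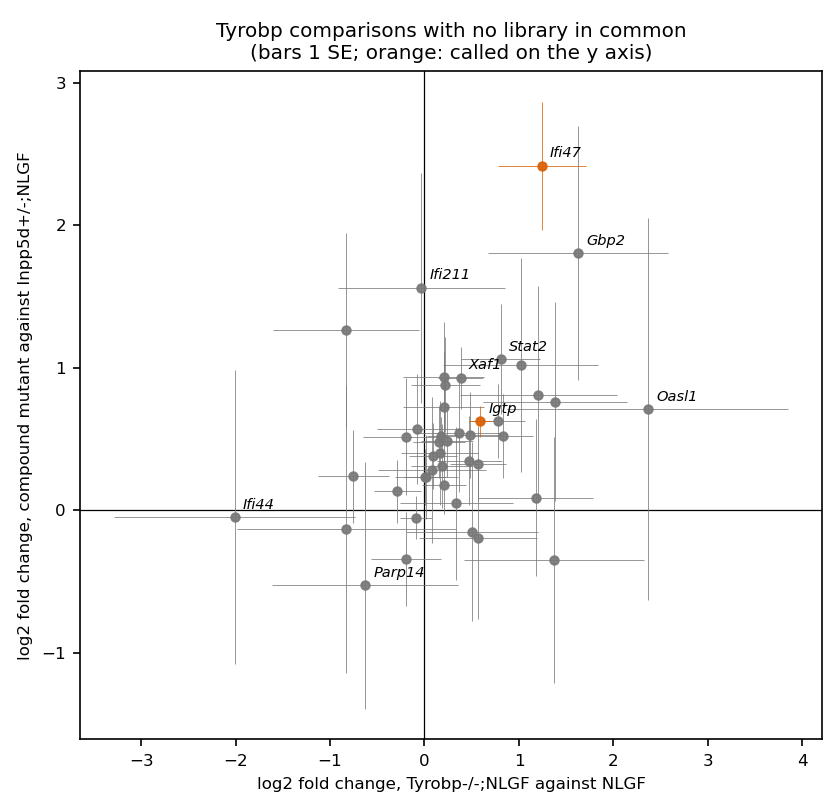
Log2 fold changes of the 44 genes for the Tyrobp-/- single mutant against NLGF (x axis) and for the compound mutant against the Inpp5d+/- single mutant (y axis), with bars of 1 SE. Igtp and Ifi47 (orange) passed on the y axis, and no gene passed on the x axis.

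The compound mutant and NLGF differ in both genes, and their comparison shares libraries with the comparisons above. Igtp rose by 0.75 on the log2 scale (SE 0.11, edgeR adjusted p = 0.015), the only member that passed, where 0.24% of all genes were called higher. Irf1 (log2 0.42, SE 0.13, edgeR adjusted p = 0.22) and Slfn2 (log2 0.76, SE 0.26, edgeR adjusted p = 0.256) did not pass. Without adjustment 7 members were higher, beside 6.52% of all genes, and DESeq2 called 2 (Irf1 and Igtp), beside 2.89%. The median over members was 0.52, with 40 of 44 above 0, where 52.2% of all genes were. Igtp did not pass without NLGF replicate 2 (log2 0.73, edgeR adjusted p = 0.0725) or without compound replicate 1 (log2 0.76, edgeR adjusted p = 0.0564). With the neutrophil covariate its value was 0.76 (edgeR adjusted p = 0.164), and without the 2 libraries with most S100a8 it passed (log2 0.83, edgeR adjusted p = 0.0454).

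With Tyrobp present and 1 Inpp5d copy lost, no member passed, and neither did any other gene (0% of all tested). For this comparison, the Inpp5d+/- single mutant against NLGF, the median over members was 0.03, 23 of 44 were above 0 (49.6% of all genes), and only Ifi47 had an unadjusted p under 0.05 (4.66% of all genes), with a lower level (log2 -1.77, SE 0.44, edgeR adjusted p = 0.952). All 3 Inpp5d+/- libraries were below all NLGF libraries for Ifi47, as was so for 2 members in all and for 3.97% of all genes. DESeq2 called this change (adjusted p = 0.0456) and 0.197% of all genes, and limma-voom called 0 members and 0% of all genes. Upwards, 1 member did not overlap, as for 3.64% of all genes. It was Igtp, at 75.9 to 83.2 CPM in the Inpp5d+/- single mutant and 70.1 to 75 CPM in NLGF. The median SE of a member was 0.38 on the log2 scale, so that differences of that size could not be told from 0. Values for Ifit1 (log2 1.15, SE 0.56) and Ifi207 (log2 1.55, SE 0.89) rest on wide spreads, since Ifit1 was at 15.8 CPM in 1 Inpp5d+/- library and at 2.1 to 5.64 CPM in the other 5 libraries with Tyrobp.

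With Tyrobp absent, the compound mutant against the Tyrobp-/- single mutant also had 0 calls among members, beside 0.00981% of all genes, and 0 by DESeq2 and limma-voom. The median was 0.17, with 29 of 44 above 0 (51.1% of all genes). Only Ifi44 had an unadjusted p under 0.05, as 4.08% of all genes did (log2 3.65, SE 1.38, edgeR adjusted p = 1). It was at 0.0398 and 0.24 CPM in the Tyrobp-/- single mutant and at 0.188, 2.55 and 2.65 CPM in the compound mutant, near the floor in 3 libraries. Oasl2 (log2 0.80, SE 0.37) was among the 5 members that were higher in all compound libraries (11.4%, against 9.13% of all genes). Averaged over both Tyrobp genotypes, Inpp5d+/- gave 0 calls among members by any of the 3 tools, beside 0% of all genes by edgeR, with a median of 0.14 and 31 of 44 above 0 (50.7% of all genes). Unadjusted p was under 0.05, as for 5.16% of all genes, for Ifi44, higher (log2 2.67, SE 0.87), and Ifi47, lower (log2 -1.18, SE 0.32).

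Whether the Tyrobp effect differed with Inpp5d was tested by the interaction, and no member passed by edgeR (0% of all genes did), DESeq2 or limma-voom, nor had an unadjusted p under 0.05, as 4.7% of all genes did. The median SE of a member was 0.58 on the log2 scale here, and 30 of 44 members were above 0 (51.4% of all genes). Iigp1 was 2.10 (SE 1.04), Ifi47 1.18 (SE 0.65) and Oasl2 0.99 (SE 0.50).

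Genes of the pathway that are not members were read in the same fit. Of 39 tested, 5 rose and 0 fell with loss of Tyrobp, beside 2.08% of all genes called higher and 2.66% lower. Of the interferon genes themselves 19 of 21 were not tested because they had 0 or 1 count in all 11 libraries together. Ifng had no count. Ifnb1, which encodes interferon beta, had 38 and 0 counts in the Tyrobp-/- single mutant, 4, 49 and 38 in the compound mutant, and 0 in all 6 libraries with Tyrobp. It was chosen for mention after its values were seen, and it did not pass (edgeR unadjusted p = 0.00751, adjusted p = 0.096), though DESeq2 called it (adjusted p = 0.0279). The library without a count, Tyrobp-/- replicate 2, had 4438 CPM of neutrophil markers, and compound replicate 1, with 4 counts, had 256 CPM, and the part of such cells was not tested. Without Tyrobp-/- replicate 1, both the remaining single mutant library and all NLGF libraries held 0 counts, so the average could not be estimated.

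Among the receptors, Ifngr1, the ligand-binding chain for interferon gamma, rose (log2 0.30, SE 0.07, edgeR adjusted p = 0.0397), from 1047 to 1351 CPM with Tyrobp to 1389 to 1546 CPM without it. Ifngr2 was at 318 to 453 and 420 to 472 CPM, Ifnar1 at 59.7 to 79.2 and 58.9 to 76 CPM, and Ifnar2 at 304 to 378 and 328 to 380 CPM. These 3 receptor genes overlapped between genotypes. Upstream, Irf5, a factor downstream of Toll-like receptors, rose (log2 0.31, SE 0.06, edgeR adjusted p = 0.0212), as did the adaptor gene Myd88 (log2 0.46, SE 0.11, edgeR adjusted p = 0.0445).

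Of 12 inhibitors, Socs3 and Samhd1 rose, beside 2.08% of all genes called higher. Socs3, which encodes a feedback inhibitor of cytokine receptors, was at 47.9, 40.5 and 36.6 CPM in NLGF, 68.6, 38.5 and 60.5 in the Inpp5d+/- single mutant, 188 and 248 in the Tyrobp-/- single mutant, and 192, 224 and 229 in the compound mutant (log2 2.17, SE 0.16, edgeR adjusted p = 0.000128). It passed in each Tyrobp comparison, and with the neutrophil covariate or without the 2 libraries with most S100a8 it was the only pathway gene that passed. Samhd1, which encodes an enzyme that breaks down dNTPs, was at 28.4 to 51.1 CPM with Tyrobp and 45.9 to 92.3 CPM without (log2 0.87, SE 0.20, edgeR adjusted p = 0.0402).

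Of 81 further interferon-induced genes tested, 5 rose and 1 fell with loss of Tyrobp, beside 2.08% of all genes called higher and 2.66% lower. Fcgr1, which encodes the Fc receptor CD64, was at 331 to 380 CPM with Tyrobp and 460 to 551 CPM without (log2 0.48, SE 0.07, edgeR adjusted p = 0.00419). Ccl12, a monocyte chemokine gene, was at 104 to 160 and 153 to 333 CPM (log2 0.70, SE 0.15, edgeR adjusted p = 0.0296), and Trafd1, a negative regulator of innate signalling, at 56.6 to 72.1 and 83.7 to 101 CPM (log2 0.53, edgeR adjusted p = 0.0108). Cd274, which encodes PD-L1 and is induced by interferon gamma, fell, from 31.5 to 46.9 CPM to 15.3 to 26 CPM (log2 -1.03, SE 0.17, edgeR adjusted p = 0.00953). So the direction was not shared by all genes of the list. Ifitm6 (log2 4.94, edgeR adjusted p = 0.0248) was at 37.7 to 61.9 CPM in the 3 libraries with the highest neutrophil sums and at 2.41 and 12.4 CPM in the other 2 without Tyrobp, and at 0 to 3.37 CPM with Tyrobp. Slfn4 (log2 3.68, edgeR adjusted p = 0.0267) was at most 0.204 CPM with Tyrobp and at 0.148 to 2.49 CPM without. With the neutrophil covariate none of these 6 passed. In that fit the SE of Igtp was 0.17, against 0.08 in the main fit, so not passing need not mean a smaller difference. The fit without the 2 libraries with most S100a8 left 1 library in the Tyrobp-/- single mutant, and its calls are not given for these genes.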

How the data were processed

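RNA of the cells sorted as microglia was sequenced in 11 libraries made with the SMART-Seq v4 kit, which does not mark strand, per the labels' protocols. The submitters' processing notes name STAR 2.7.3a, featureCounts 1.6.4, GRCm38.p6 and mm10. The authors deposited whole-number read counts per gene for 55401 rows, with no normalisation. Which annotation release was used and how reads with several positions were counted is not given in the sources used here. Thus multigene families such as the GTPases and the Ifi200, IFIT, OAS and Schlafen clusters, and overlapping genes, are uncertain. The 37 chromosome M rows were at 0 throughout.

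Groups follow the genotype label, and replicate numbers follow sample order. Totals were 29490567 to 66637052 counts, and no 2 libraries were identical. No label says that libraries came from separate animals, so the p-values rest on spread among libraries, which may be technical, and floors cover counting error only.

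Genes were kept with filterByExpr (minimum count 10, minimum total 15), scaled by TMM and fitted with 1 coefficient per group in edgeR 4.0.16 under R 4.3.3 (glmQLFit, glmQLFTest) over all libraries. Adjusted p-values are Benjamini-Hochberg values over 20390 genes within each of 8 comparisons, with a threshold of 0.05. The procedure was also run on counts simulated from its own model, with the spread estimated from these data. Such a run cannot show that the model holds for them. CPM uses the scaled sizes. Alternatives were other scalings, filters, tools (DESeq2 1.42.0, limma 3.58.1), a threshold of 0.1, only the groups of a comparison, a neutrophil marker covariate, and left-out libraries.

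The members, lists and alternatives were chosen with earlier results of these data known. Values per library or group range are given for the 2 members of each role with the highest mean CPM, every member called, and the 3 with the smallest p in each comparison. Tyrobp, Inpp5d, the interferon receptors and Socs3 are always given, and the result of 1 further gene of this rule is not reported here. Of the pathway and further lists, members called were named, up to 6 per list. Promoters were taken from RefSeq (GRCm38.p6).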

Additional observations from a re-analysis of the deposited data

How the results depend on the processing

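No call changed direction under any alternative, while the median over members for the Inpp5d+/- single mutant against NLGF, near 0, ran from -0.13 to 0.15 with single libraries left out. With main counts of members called of 2 for the compound mutant against the Inpp5d+/- single mutant, 1 against NLGF, 0 for the Tyrobp-/- single mutant against NLGF and 3 for Tyrobp-/- averaged, DESeq2 gave 4, 2, 1 and 8, and it gave 1 for the Inpp5d+/- single mutant against NLGF (main 0). At a threshold of 0.1 the Tyrobp-/- single mutant had 1 and the average 5. The shares of all genes called under this and the following alternatives are not set beside the counts. The counts therefore show only how the number of members called moved. For the compound mutant against the Inpp5d+/- single mutant, no filter gave 1, limma-voom 1, the fit on only those groups 0, the neutrophil covariate 0, and the fit without the 2 libraries with most S100a8 0. Against NLGF, the compound mutant had 0 in the fit on only those groups and 0 with the covariate. The average had 0 with the covariate and 1 (Igtp) without the 2 libraries. Without single libraries, these counts ran from 0 to 2, 0 to 1, 0 to 1 (Parp14, lower, without Tyrobp-/- replicate 2, where the 1 library left is assumed to vary like the other groups) and 1 to 4, the 1 (Igtp) without Tyrobp-/- replicate 1. The median over members moved most for the compound mutant against the Tyrobp-/- single mutant without the 2 libraries (0.41, main 0.17), and for the Tyrobp-/- single mutant against NLGF it ran from 0.091 to 0.44 with single libraries left out. The Igtp value for Tyrobp-/- averaged passed under every alternative run except the covariate. Of the named genes under alternatives other than single left-out libraries, 339 results stayed on their side of the threshold, 51 lost the call and 8 gained it. These include the fit without the 2 libraries with most S100a8. With single libraries left out, 351 stayed and 111 lost it. The cause of these shifts was not tested. No paired analysis was possible because replicate numbers follow sample order and pair no libraries. With 2 or 3 libraries per group, the median SE of a member, 0.38 to 0.43 on the log2 scale between pairs of groups, limits what could be called.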

Other observations

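A few members differed more within a genotype than between genotypes. Parp14, which encodes a large ADP-ribosyltransferase, was at 0.279 CPM in Tyrobp-/- replicate 1 and at 12.5 CPM in replicate 2, with 4.88 to 11.3 CPM in the other 9 libraries. The neighbouring members Parp9 and Dtx3l were at 72.2 and 32.7 CPM in that replicate 1, within the range of the other libraries. Ddx58 differed from 4.21 to 35.2 CPM among the 3 NLGF libraries. Gbp2 and Ifi211 were at 0.181 and 0.462 CPM in Inpp5d+/- replicate 2, where 15 of the 44 members had their lowest value, and Ifit1 was at its highest, 15.8 CPM, in the same library. The reasons were not tested.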
